A study of Homo sapiens with 9 samples.

Results

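This report describes 10 interferon-induced antiviral effector genes in HT-29 cells treated with 5-aza-deoxycytidine (5-Aza). The genes are MX1, MX2, IFI6, IFI27, IFI44, IFI44L, RSAD2 (viperin), CMPK2, BST2 (tetherin) and EPSTI1. They were chosen by symbol, from a list of gene names, and all 10 of 10 were found among the 23284 gene symbols measured. HT-29, a cell line derived from a human colon adenocarcinoma, was grown as monolayers in dishes. The 3 groups of 3 cultures each received vehicle (DMSO) alone, which is the 0 µM group, 5 µM 5-Aza or 10 µM 5-Aza, and treatment lasted 5 days. RNA was sequenced with paired ends and is given per gene as FPKM, fragments per length of transcript and per unit of library. All 9 cultures come from 1 cell line and differ by dose alone, so nothing here extends to other cells. In bulk libraries a higher level in every cell and a larger fraction of expressing cells cannot be told apart.

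Type I and type III interferons bind receptors at the cell surface and, through the kinases JAK1 and TYK2, lead to a transcription factor complex that moves to the nucleus. That complex binds a promoter element called the interferon-stimulated response element (ISRE) and raises the interferon-stimulated genes, a large set whose products interfere with steps of viral replication. 5-Aza is incorporated into DNA and traps DNA methyltransferases, so that methylation is lost as cells divide.

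The start-site sequences of these genes are shown because interferon is known to act on its target genes through short promoter elements. Windows of 300 bases, 250 before and 50 from the annotated start onward, were taken from RefSeq on GRCh38.p14, and 16 windows matched 9 of the 10 genes (none for MX2). The ISRE-type letters GAAANNGAA, searched on both strands, were present in windows of all 9 genes, in 13 of the 16 windows. Of all 35116 windows of that length, 8.11% held them. More than 1 match occurred in 6 of the 16 windows, against 0.701% of all windows. The letters TTCNNNGAA, of the gamma-activated (GAS) type and the same on either strand, occurred in 5 of the 16 windows, against 7.66% of all windows. Windows can overlap, so these counts of windows include some sites more than once. Both IFI27 windows hold the same ISRE-type matches, as do both IFI44 windows, and a window of RSAD2 shares its match with a window of CMPK2. A match is a description of the letters and not a shown binding site.

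A selection of those windows follows, each 5′ to 3′ on the strand of its gene, in lower case with every ISRE-type match in capitals. IFI6 lies at chr1:27672143-27672442 on the minus strand and has 3 matches, the most of any window. IFI44L lies at chr1:78620198-78620497 on the plus strand and has no CpG. MX1 is given by its first annotated start at chr21:41420308-41420607, plus strand, and BST2, the gene with the smallest rise, by chr19:17405581-17405880, minus strand. RSAD2, the gene with the largest rise, is shown at both of its annotated starts, chr2:6865635-6865934 (upstream start) and chr2:6877527-6877826 (downstream start), both on the plus strand.
IFI6: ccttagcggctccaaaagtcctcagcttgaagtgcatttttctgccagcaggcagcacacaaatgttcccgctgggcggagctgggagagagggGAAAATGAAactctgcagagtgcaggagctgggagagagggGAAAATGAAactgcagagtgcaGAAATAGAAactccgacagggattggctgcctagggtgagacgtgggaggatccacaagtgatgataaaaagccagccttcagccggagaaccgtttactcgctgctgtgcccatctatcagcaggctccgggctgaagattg
IFI44L: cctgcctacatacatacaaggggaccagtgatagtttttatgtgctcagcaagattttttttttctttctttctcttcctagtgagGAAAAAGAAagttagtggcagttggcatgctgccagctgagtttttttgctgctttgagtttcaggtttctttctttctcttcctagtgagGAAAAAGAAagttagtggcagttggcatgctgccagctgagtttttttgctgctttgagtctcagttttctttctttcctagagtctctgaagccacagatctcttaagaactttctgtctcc
MX1: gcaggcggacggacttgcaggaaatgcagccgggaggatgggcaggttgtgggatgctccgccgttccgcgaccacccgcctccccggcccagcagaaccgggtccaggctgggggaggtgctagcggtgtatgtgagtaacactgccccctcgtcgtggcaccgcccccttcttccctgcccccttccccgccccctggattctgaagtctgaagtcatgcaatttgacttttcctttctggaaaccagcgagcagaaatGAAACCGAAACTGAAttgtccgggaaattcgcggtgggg
BST2: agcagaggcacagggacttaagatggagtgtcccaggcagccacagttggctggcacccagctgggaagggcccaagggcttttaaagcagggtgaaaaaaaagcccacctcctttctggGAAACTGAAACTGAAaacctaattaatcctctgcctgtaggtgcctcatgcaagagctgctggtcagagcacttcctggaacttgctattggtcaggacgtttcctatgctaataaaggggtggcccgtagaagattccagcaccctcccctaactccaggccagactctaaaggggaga
RSAD2 upstream start: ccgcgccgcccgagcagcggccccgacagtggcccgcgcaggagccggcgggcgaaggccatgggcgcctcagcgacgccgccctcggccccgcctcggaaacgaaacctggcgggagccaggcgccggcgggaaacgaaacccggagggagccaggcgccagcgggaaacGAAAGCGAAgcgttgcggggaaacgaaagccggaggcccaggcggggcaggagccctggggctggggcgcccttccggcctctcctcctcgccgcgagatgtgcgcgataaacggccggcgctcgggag
RSAD2 downstream start: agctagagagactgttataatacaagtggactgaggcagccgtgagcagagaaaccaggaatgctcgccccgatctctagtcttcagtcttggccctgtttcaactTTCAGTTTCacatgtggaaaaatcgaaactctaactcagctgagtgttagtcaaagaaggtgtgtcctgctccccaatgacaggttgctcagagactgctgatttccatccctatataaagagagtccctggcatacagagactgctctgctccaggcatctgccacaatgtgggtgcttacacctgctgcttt

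The matches do not sit at one distance from the start. In IFI6 they begin 156, 115 and 93 bases before it, in IFI44L 164 and 73 bases before it, and in BST2 as an overlapping pair 130 and 124 bases before it. The pair in MX1 also overlaps and lies just downstream, from base 12 and base 18 of the transcript. In IFI44L the 2 matches belong to a stretch of 85 bases that occurs in the window again, letter for letter, 91 bases further on. IFI6 has a repeat of the same kind, 29 bases long and 41 bases apart, with 1 match in each copy. The windows of the upstream RSAD2 start and of the neighbouring CMPK2, which is transcribed in the opposite direction, share 165 bases (chr2:6865770-6865934). One and the same match, chr2:6865806-6865814, is the only one in either of these windows. CpG dinucleotides, the sites that DNA methyltransferases modify, ranged from 0 in the windows of IFI44 and IFI44L to 45 in that of the upstream RSAD2 start, with a median of 14 over all windows. The downstream RSAD2 start had 4, BST2 had 2, IFI6 had 9 and EPSTI1 had 18.

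Some libraries stood apart from their group in most of these genes. Control replicate 3 was the lowest of its group in 10 of the 10 genes and in 53.2% of all genes. The shares of all genes here are over those above 0 in all 3 cultures of the group. At 10 µM, replicate 2 was the highest in 10 of the 10 and in 64.0% of all genes, while replicate 1 was the lowest in 8 (45.8% of all genes). At 5 µM, replicate 2 was the highest in 10 (41.5% of all genes) and replicate 3 the lowest in 9 (24.0%). FPKM summed over a library to between 3.69e+09 and 5.91e+09, so the values are not on the usual per-million scale and can be read only against each other. The estimated number of fragments behind a value of the 10 genes ran from 204 (EPSTI1, control replicate 1) to 26597 (IFI6, 5 µM replicate 2). All 10 colon epithelium markers checked were above 0 in every library. Their summed FPKM was 8.39e+07 to 1.01e+08 in the controls, 3.37e+07 to 3.81e+07 at 5 µM and 2.7e+07 to 4.7e+07 at 10 µM, with KRT8 and KRT18 the largest terms. CEACAM5 instead went from 177026 to 216821 FPKM in the controls to 519966 to 626365 at 5 µM, and CDX1 from 3424 to 4352 to 15250 to 19007. Of 12 leukocyte markers 4 were above 0 in all libraries, and their sum was 8.69e+06 to 8.94e+06 in the controls, 4.58e+06 to 5.44e+06 at 5 µM and 4.74e+06 to 6.88e+06 at 10 µM, with LYZ the largest term. CD68 went the other way, from 121931 to 128554 FPKM in the controls to 653377 to 690427 at 5 µM, as did ITGAM, from 446 to 1346 to 8026 to 11825. The defining T cell markers CD3E and CD3D were at 0 in all controls, with CD3E at 732 to 912 FPKM at 5 µM and 345 in 10 µM replicate 3, and CD3D at 2808 in 5 µM replicate 3. Of 10 fibroblast and endothelium markers 5 were above 0 in all libraries, with sums of 1.07e+05 to 1.27e+05, 1.77e+05 to 1.87e+05 and 1.24e+05 to 1.37e+05 at 0, 5 and 10 µM. The part of these marker changes in the results below was not tested.

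The first comparison asks how the effectors responded to 5 µM 5-Aza, the second whether a higher dose changed that response, and the third whether a rise over vehicle remained at 10 µM. All 10 effectors rose at 5 µM, by log2 differences of 1.22 (BST2) to 2.89 (RSAD2) with a median of 1.71, and every 5 µM value lay above every control value in 10 of the 10. A gene was called at a limma adjusted p (Benjamini-Hochberg, over all symbols tested) of at most 0.05 and a log2 difference beyond 1. By that rule 14.1% of the 20051 symbols tested rose, 29.4% had their 5 µM values all above their control values, and the median log2 difference over all symbols was 0.14.
At 10 µM the levels lay between those of vehicle and 5 µM. Every 10 µM value was below every 5 µM value in 10 of the 10 genes, against 25.3% of all 20085 symbols tested, but only MX2 was called as lower, against 4.82% of all symbols. The log2 differences from 5 µM ran from -1.13 to -0.44 with a median of -0.84, where the median over all symbols was -0.31, and 7 of the 10 had an unadjusted p under 0.05, against 22.0% of all symbols in that direction. After scaling to the library sum, the limma adjusted p was under 0.05 for MX1, MX2, IFI44, IFI44L, RSAD2, CMPK2 and EPSTI1. Of these, RSAD2 alone passed the fold limit, and 947 of the 20085 symbols were called as lower under that scaling. The share of all symbols that met the p limit alone is not given for that scaling. For IFI6, IFI27 and BST2 the limma adjusted p was then 0.0672, 0.0702 and 0.128.
Against vehicle, MX2, IFI44L, RSAD2 and EPSTI1 were called as higher at 10 µM, 4 of 10, against 4.07% of the 18928 symbols tested. In 8 of the 10 every 10 µM value was above every control value, against 14.4% of all symbols, the exceptions being IFI27 and CMPK2. The median log2 difference was 0.93, against -0.15 over all symbols. For the number of effectors called, the scale matters most in this last comparison. Of all genes above 0 the median log2 difference between 10 µM and vehicle was -0.23 as deposited, 0.01 after median-of-ratios scaling and 0.14 after scaling to the library sum, and the calls among all genes were 771 up and 644 down as deposited, 1125 and 284, and 1362 and 164, respectively. Under either rescaling 7 of the 10 effectors were called as higher than vehicle in place of 4, MX1, IFI6 and BST2 being added.

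**Figure D1:**
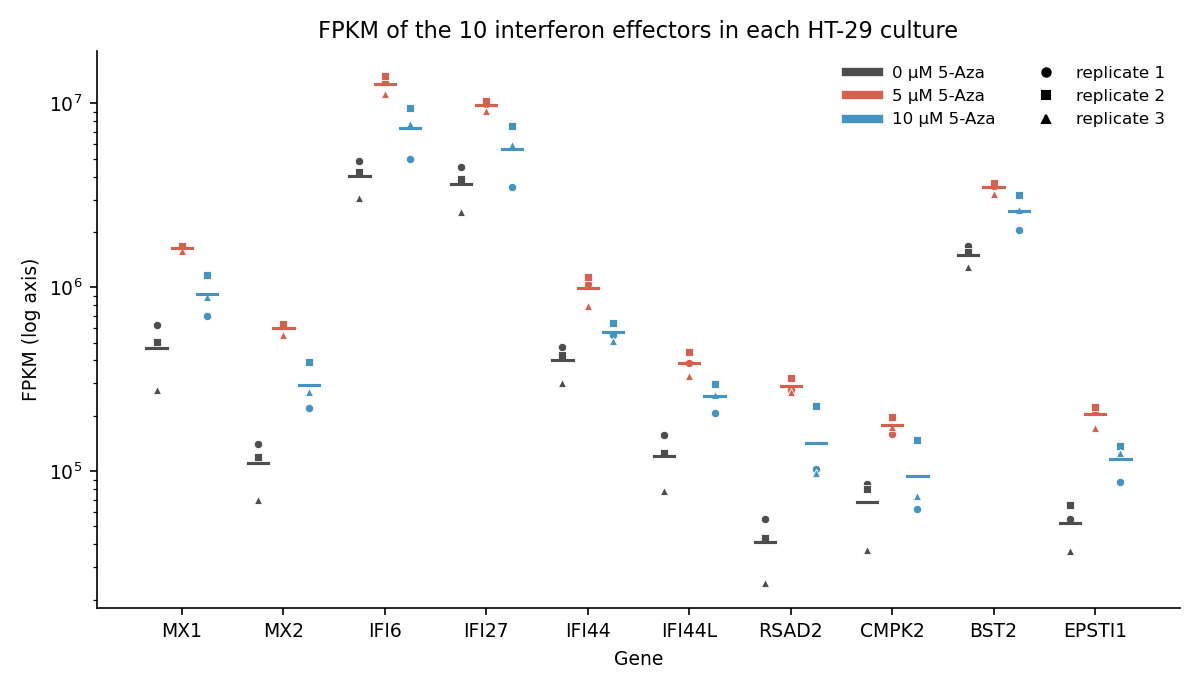
FPKM (log axis) of the 10 genes in each of the 9 cultures, by gene; colours are doses, symbols are replicates and short lines are group means of 3 cultures. The 5 µM values lie above both other groups in every gene, and 10 µM replicate 2 (square) is the highest of its group in all 10.

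The MX proteins are dynamin-like GTPases that assemble around viral components. MX1 encodes MxA, which acts in the cytoplasm against influenza and many other RNA viruses, and MX2 encodes MxB, which restricts HIV-1 and herpesviruses at the nuclear envelope. The genes are neighbours, MX2 at chr21:42733926-42781320 and MX1 at chr21:42791947-42841998, both on the plus strand (GRCh37).
MX1 stood at 620180, 504998 and 277353 FPKM in the control replicates 1 to 3, at 1631050, 1670770 and 1572800 at 5 µM, and at 694472, 1161900 and 883136 at 10 µM. The 3 groups did not overlap, and the 5 µM cultures were the tightest. The 5 µM mean was 3.48 times that of the controls. The log2 difference, between means of log2 values here and below, was 1.87 ± 0.28 (SE, limma adjusted p = 0.00325). Between 10 and 5 µM the log2 difference was -0.86 ± 0.21 (limma adjusted p = 0.0624), and between 10 µM and vehicle 1.01 ± 0.32 (limma adjusted p = 0.0726), neither of them called.
MX2 read 141213, 118880 and 70031 FPKM in the controls, 614724, 628700 and 551224 at 5 µM, and 220256, 394380 and 269180 at 10 µM. Again no 2 groups overlapped, and all 3 comparisons were called. The 5 µM mean was 5.44 times the control mean, with a log2 difference of 2.50 ± 0.25 (limma adjusted p = 0.000818). Among the symbols above 0 in each library, the gene moved from the 50.2 to 62.6 percentile into the 92.2 to 93.4 percentile. At 10 µM it fell by 1.06 ± 0.22 on the log2 scale from 5 µM (limma adjusted p = 0.0357) and stayed above vehicle by 1.44 ± 0.31 (limma adjusted p = 0.0263). The fall was not called in 8 of 15 other settings: the replicate block, both rescalings, and the fits without any 1 library other than 10 µM replicate 2. Over all 15 the log2 difference was between -1.29 and -0.86, and the limma adjusted p reached 0.159. Under both rescalings only the fold limit was missed. The log2 difference was -0.86 with median-of-ratios scaling (limma adjusted p = 0.0185) and -0.97 with scaling to the library sum (limma adjusted p = 0.00652). The call against vehicle was lost in 4 of 15, without control replicate 2 or 3 or 10 µM replicate 1 or 3 (limma adjusted p of up to 0.0891).

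IFI6 and IFI27 belong to the small hydrophobic ISG12 family. IFI6 resides in the endoplasmic reticulum, where it hinders flavivirus replication, and IFI27 has been placed at mitochondria and the nuclear envelope. They were the most abundant of the effectors in every group. Both were already within the top 2 percent of the symbols above 0 in each control library, the lowest percentile being 98.6.
IFI6 (chr1:27992575-27998723, minus strand) read 4861420, 4211210 and 3055340 FPKM in the controls, 12993800, 14076700 and 11249100 at 5 µM, and 4984180, 9427560 and 7749300 at 10 µM. Replicate 1 at 10 µM lay just above the highest control. The 5 µM rise was 3.16-fold by the means, with a log2 difference of 1.68 ± 0.20 (limma adjusted p = 0.0014). From 5 to 10 µM the difference was -0.83 ± 0.39 (95% interval -1.76 to 0.09) and from vehicle to 10 µM 0.85 ± 0.36 (0.01 to 1.69), with limma adjusted p of 0.235 and 0.138.
IFI27 (chr14:94571182-94583032, plus strand) had control values of 4509200, 3895290 and 2558020 FPKM, 5 µM values of 9907370, 10344000 and 9037090, and 10 µM values of 3517600, 7488620 and 5950690. Here 10 µM replicate 1 was back inside the control range, below control replicates 1 and 2. The gene rose 2.67-fold by the means at 5 µM, with a log2 difference of 1.46 ± 0.22 (limma adjusted p = 0.00333). At 10 µM the difference from vehicle was 0.60, with a 95% interval from -0.29 to 1.49 that holds both no change and a rise as large as that at 5 µM.

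IFI44 and IFI44L are adjacent paralogues on chromosome 1, IFI44L at chr1:79085587-79111830 and IFI44 at chr1:79115481-79129763, both on the plus strand. Their products are cytoplasmic proteins, and IFI44L methylation in blood has been used as a marker of lupus.
IFI44 stood at 472910, 426080 and 302470 FPKM in the controls, 1041370, 1141630 and 794160 at 5 µM, and 552796, 642915 and 512694 at 10 µM. Its groups were separate, with 10 µM close to the controls. The rise at 5 µM was 2.48-fold (log2 difference 1.32 ± 0.21, limma adjusted p = 0.0037). At 10 µM the log2 difference from vehicle was 0.53 ± 0.19 (limma adjusted p = 0.101) and from 5 µM -0.79 ± 0.18 (limma adjusted p = 0.0535).
IFI44L read 157816, 126102 and 77598 FPKM in the controls, 385170, 445235 and 329212 at 5 µM and 206870, 297828 and 259640 at 10 µM. All 10 µM cultures stood above all controls and below all 5 µM cultures. The gene rose 3.21-fold at 5 µM (log2 difference 1.73 ± 0.27, limma adjusted p = 0.00345) and was still 2.11-fold above vehicle at 10 µM (1.12 ± 0.27, limma adjusted p = 0.0361). That second call was lost in 6 of 15 other settings: 5 of the 6 fits that leave out 1 library, control replicate 1 being the exception, and the fit with no filter on low values (limma adjusted p of up to 0.118).

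RSAD2 encodes viperin, a radical SAM enzyme that turns CTP into ddhCTP, a chain terminator of viral RNA polymerases. CMPK2 encodes a mitochondrial nucleotide kinase whose products include the CTP precursor. The genes lie head to head on chromosome 2, RSAD2 at chr2:7005688-7038370 on the plus strand and CMPK2 at chr2:6980701-7006766 on the minus strand. Their annotations overlap by 1079 bases, and the libraries do not mark strand, so reads from that overlap cannot be told apart.
RSAD2 was at 54767, 43465 and 24783 FPKM in the controls, the lowest mean of the 10 genes, at 275517, 321482 and 269036 at 5 µM, and at 103095, 224886 and 97100 at 10 µM. The 5 µM cultures were all above the others, and at 10 µM replicate 2 stood far from replicates 1 and 3. The 5 µM mean was 7.04 times the control mean, with a log2 difference of 2.89 ± 0.28 (limma adjusted p = 0.000765). At 10 µM the gene was above vehicle by 1.75 ± 0.40 (limma adjusted p = 0.0313), and it differed from 5 µM by -1.13 ± 0.32 (limma adjusted p = 0.0882). The call against vehicle was lost in 6 of 15 other settings, namely without any 1 library other than 10 µM replicate 2 and with no filter on low values (limma adjusted p of up to 0.0919). Without 10 µM replicate 2 the difference from 5 µM was -1.52 and was called (limma adjusted p = 0.00349), as it was at -1.04 under total scaling (limma adjusted p = 0.0377).
CMPK2 behaved less evenly, with 85601, 79783 and 37372 FPKM in the controls, 160138, 196798 and 174386 at 5 µM, and 62020, 148302 and 72826 at 10 µM. Replicates 1 and 3 at 10 µM fell within the control range. It rose 2.62-fold at 5 µM (log2 difference 1.48 ± 0.32, limma adjusted p = 0.0129). The call was lost when 5 µM replicate 2 or 3 was left out, at a limma adjusted p of 0.0566 and 0.0552. The difference between 10 µM and vehicle was 0.46, with a 95% interval from -0.52 to 1.44.

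BST2 (chr19:17513748-17516439, minus strand) encodes tetherin, a membrane protein that holds budding virions to the cell surface. Its FPKM was 1669770, 1553150 and 1286750 in the controls, 3569700, 3698270 and 3198450 at 5 µM, and 2053980, 3158170 and 2631080 at 10 µM. Groups were separate at each step, although the highest 10 µM value came close to the lowest at 5 µM. Its rise at 5 µM was the smallest of the 10 and had the smallest error (2.32-fold, log2 difference 1.22 ± 0.12, limma adjusted p = 0.000803). At 10 µM it stood 0.78 ± 0.23 above vehicle (limma adjusted p = 0.0567) and -0.44 from 5 µM, with a 95% interval from -1.0 to 0.13.
EPSTI1 (chr13:43460524-43566407, minus strand) is an interferon-induced gene first described in epithelial cells grown with stromal cells. It read 55190, 65311 and 36679 FPKM in the controls, 215940, 223754 and 171481 at 5 µM, and 87771, 137191 and 125395 at 10 µM. No groups overlapped. The gene rose 3.89-fold at 5 µM (log2 difference 1.99 ± 0.23, limma adjusted p = 0.00117) and remained 2.23-fold above vehicle at 10 µM (1.17 ± 0.26, limma adjusted p = 0.0292). The latter call was lost in 5 of 15 other settings, each leaving out 1 library other than 10 µM replicate 2 (limma adjusted p of up to 0.106).

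**Figure D2:**
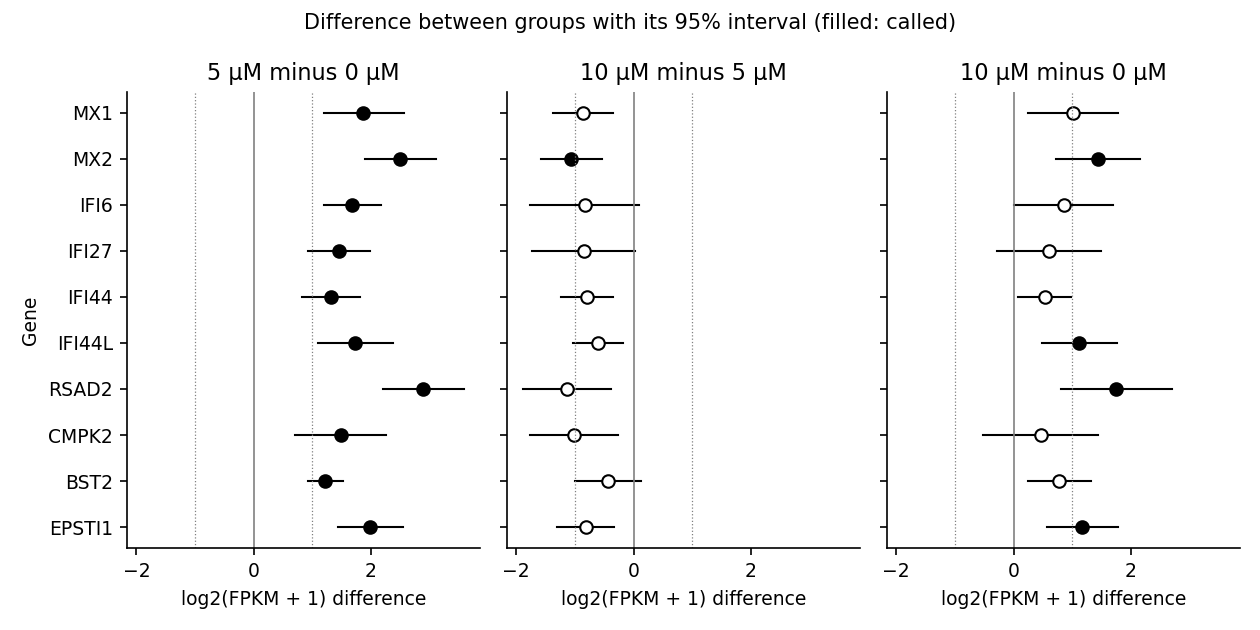
Log2(FPKM + 1) difference of each gene in the 3 comparisons, with its 95% interval from limma (3 cultures a group); filled points were called, and dotted lines mark differences of 1 and -1. All 10 are filled for 5 µM against vehicle, 1 for 10 µM against 5 µM and 4 for 10 µM against vehicle.

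Persistence was expressed as the rise of the 10 µM mean over the control mean, in percent of the rise at 5 µM. It was 56.0% for BST2, 50.5% for IFI44L, 42.6% for EPSTI1 and 40.7% for RSAD2, then 38.5% for MX1, 38.3% for IFI6 and 37.8% for MX2. The lowest were IFI27 with 32.7%, IFI44 with 28.5% and CMPK2 with 24.5%, and the median of the 10 was 38.4%. On the deposited scale the cultures of the 10 µM group also differed among themselves. The median over the 10 genes was 23.0% in replicate 1, 62.2% in replicate 2 and 36.8% in replicate 3. Replicate 1 gave -5.08% for CMPK2 and -2.24% for IFI27, where it was under the control mean, and no gene exceeded 32.5% in it. Replicate 2 gave 41.0% (IFI44) to 83.3% (BST2). All these shares are on the deposited scale and were not computed after rescaling. The medians of the cultures follow the order of their FPKM sums, 3.69e+09, 5.08e+09 and 4.20e+09 in replicates 1 to 3. The part of the library scale in this spread was not tested.

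**Figure D3:**
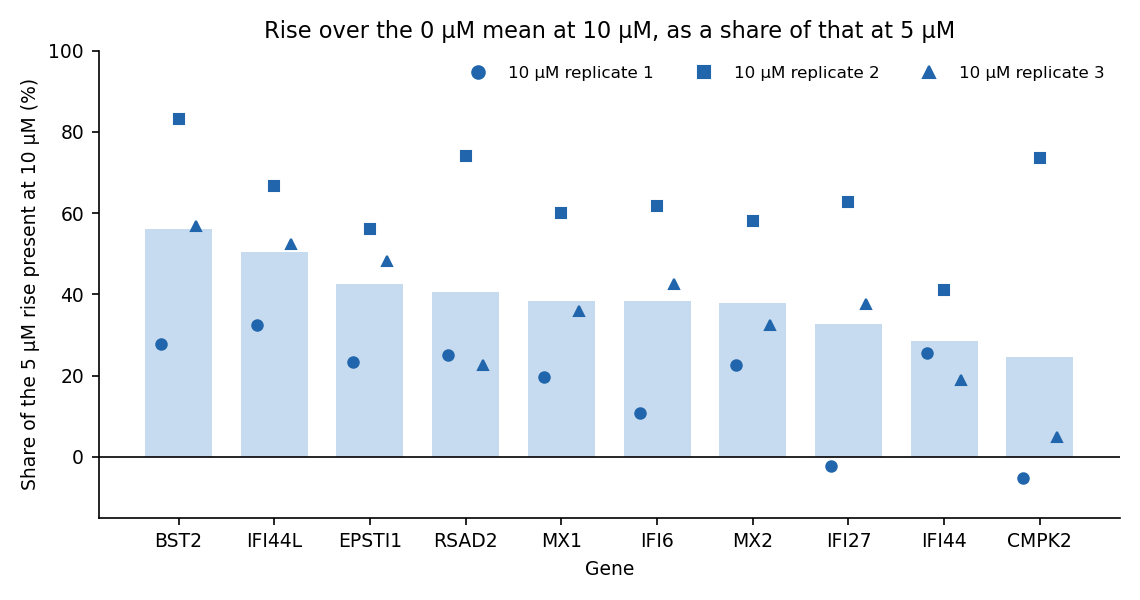
Rise over the 0 µM mean at 10 µM as a percentage of the rise at 5 µM, by gene; bars use the mean of 3 cultures at 10 µM and points are the single cultures. Bars run from 56.0% (BST2) to 24.5% (CMPK2), and replicate 2 (square) gives the highest point for every gene on the deposited scale.

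Ratios between genes in the same library do not depend on how that library was scaled. They were computed for 4 pairs of related or neighbouring genes, chosen after the values had been seen. The MX2 to MX1 ratio was 0.228, 0.235 and 0.252 in the controls, 0.377, 0.376 and 0.350 at 5 µM, and 0.317, 0.339 and 0.305 at 10 µM, so MX2 gained on MX1 and the 3 groups did not overlap. For RSAD2 to CMPK2 the ratio was 0.616 ± 0.0627 (SD, n = 3) in the controls, 1.63 ± 0.0889 at 5 µM and 1.5 ± 0.165 at 10 µM. Viperin RNA was thus the scarcer of this pair in all controls and the more abundant in all treated cultures. IFI44L to IFI44 went from 0.295 ± 0.0386 to 0.391 ± 0.0224 and 0.448 ± 0.0674, and IFI6 to IFI27 from 1.12 ± 0.0663 to 1.31 ± 0.0583 and 1.33 ± 0.0816. In all 4 pairs both treated groups lay wholly above the controls, which gives the exact permutation test p = 0.1, the smallest 2-sided value 3 against 3 allows (0.133 after Benjamini-Hochberg adjustment over 12 tests). Between 5 and 10 µM the groups were separate for MX2 to MX1 alone, and the other pairs overlapped.

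**Figure D4:**
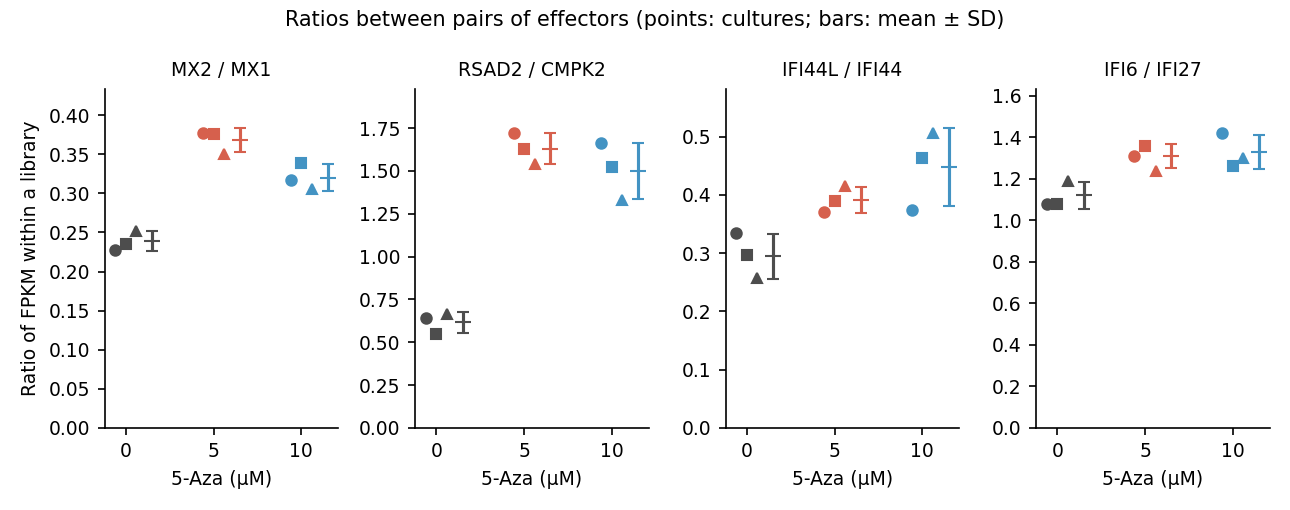
Ratio of FPKM of 2 genes within each library at 0, 5 and 10 µM 5-Aza, one panel per pair and each with its own axis from 0; points are cultures and bars are mean ± SD of 3. In each panel the 5 and 10 µM points lie above the 0 µM points, most widely for RSAD2 to CMPK2, from 0.616 to 1.63 and 1.5.

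FPKM is per length, so levels can also be ranked. The top 5 places were IFI6, IFI27, BST2, MX1 and IFI44 in all 3 groups. In the controls IFI6 and IFI27 overlapped, as did MX1 and IFI44, and from IFI44L (6th) down through MX2, CMPK2, EPSTI1 and RSAD2 (10th) each gene overlapped the next. At 5 µM MX2 was 6th ahead of IFI44L, and RSAD2 was 8th, ahead of EPSTI1 and CMPK2, the only neighbours that overlapped there. The same order held by the means at 10 µM, where all genes from MX2 downward again overlapped the next. The highest mean was 98.6 times the lowest in the controls, 72.1 times at 5 µM and 78.3 times at 10 µM.

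The rest of the interferon pathway was described from 4 lists of 84 genes, of which 77 were above 0. At 5 µM 36 of the 77 tested rose and none fell (limma; 14.1% of all symbols rose and 2.17% fell). The 36 were 2 of 14 ligands, 3 of 9 receptors and signal transducers, 5 of 8 in the list of negative regulators and 26 of 46 other interferon-induced effectors. That list of 8 also holds the modifier ISG15 and its conjugating enzyme UBE2L6, both among the 5 called. At an unadjusted limma p under 0.05, 54 of the 77 were higher and 3 lower, against 26.6% and 21.9% of all symbols. From 5 to 10 µM 2 of 77 fell, LAMP3, a lysosomal membrane protein, and DDX60L, a helicase-like effector, and none rose, against 4.82% and 0.129% of all symbols, with 38 lower and 0 higher at an unadjusted limma p under 0.05 (22.0% and 2.84% of all symbols). Against vehicle 4 of the 72 tested were called as higher at 10 µM, the ligand IL28B and the effectors HERC5, IFITM1 and XAF1, a share near the 4.07% of all symbols. At an unadjusted limma p under 0.05, 21 of the 72 were higher and 5 lower, against 11.3% and 24.2% of all symbols. The call of IL28B rests on an estimated 4.9, 1.4 and 1.4 fragments at 10 µM, against 0 in the controls. LAMP3, DDX60L and XAF1 are named because of their calls, and UBE2L6 because of the list it is in.
Apart from IFNE, ligand RNA was scarce. IFNB1, a type I interferon that most cell types can make, was listed at 0 in all controls, at 2529, 3194 and 3783 FPKM at 5 µM, which is an estimated 5.2, 6.3 and 8.4 fragments, and at 0, 2424 and 11443 FPKM at 10 µM. It was called as higher at 5 µM (limma adjusted p = 0.000343), on fewer than 10 fragments a library. The type III ligand IL28B (now IFNL3) was likewise at 0 in the controls, at 5817, 3935 and 6214 FPKM at 5 µM (limma adjusted p = 0.000272) and at 5505, 995 and 1175 at 10 µM (limma adjusted p = 0.00756). The 5 µM values of IL28B rest on an estimated 9.8, 6.3 and 11.2 fragments, and those at 10 µM on 4.9, 1.4 and 1.4. It is nearly identical to IL28A (now IFNL2), which read 1465, 0 and 0 in the controls, 3045, 3525 and 1708 at 5 µM and 576, 729 and 1722 at 10 µM, so reads could be shared between them. IL29 (now IFNL1) was at 0, 4715 and 1111 FPKM in the controls, 6413, 12459 and 5533 at 5 µM, and 2801, 4727 and 6276 at 10 µM. It was not called at 5 µM (log2 difference 5.45 ± 3.05, limma adjusted p = 0.197) or at 10 µM. Its 5 µM values were all above the controls, of which 1 at 0 widens the error.
The most abundant ligand was IFNE, an interferon of epithelia, at 137885, 162214 and 189759 FPKM in the controls, 97798, 93922 and 106693 at 5 µM, and 147512, 103886 and 124392 at 10 µM. It went against the direction of the effectors at 5 µM, with a log2 difference of -0.70 ± 0.13 (limma adjusted p = 0.00656) that did not reach the fold threshold. IFNA1 and IFNA13, near-identical copies, were above 0 in all 9 libraries, at 1380 to 9071 and 912 to 3996 FPKM. IFNK was above 0 in 1 control and at 320 to 1026 FPKM in all 5 µM cultures. IFNA8 was above 0 in 2 controls and 1 culture at 5 µM. IFNA2, IFNA16 and IFNA17 were each above 0 in 1 culture and IFNA5 and IFNA14 in 2, all at 5 µM, on at most an estimated 6.6 fragments.

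Among the transducers, STAT2, a subunit of the complex that binds the ISRE, was at 219009, 224432 and 201200 FPKM in the controls, 553778, 492692 and 476886 at 5 µM and 317389, 347193 and 271815 at 10 µM. It rose at 5 µM by 1.24 ± 0.08 on the log2 scale (limma adjusted p = 0.000267), and its groups did not overlap. The interferon lambda receptor chain IL28RA rose by 1.21 ± 0.22 (limma adjusted p = 0.0063). IRF9, a DNA-binding subunit of the same complex, differed by 0.28 ± 0.10 at 5 µM and was not called (limma adjusted p = 0.0755). The factor IRF7, from the list of other effectors, differed by 0.59 ± 0.12, under the fold threshold (limma adjusted p = 0.0111). The study's qRT-PCR of the same RNA gave IRF7 the opposite direction, without reaching significance.
In the list of negative regulators SOCS3, an inhibitor of JAK kinases, rose by 2.65 ± 0.37 (limma adjusted p = 0.00229) and its relative SOCS1 by 2.02 ± 0.44 (limma adjusted p = 0.0132). USP18, which removes ISG15 from proteins and blocks the receptor, rose by 1.56 ± 0.27 (limma adjusted p = 0.00587), and ISG15 itself, a ubiquitin-like modifier, by 1.74 ± 0.23 (limma adjusted p = 0.00198).
The largest rises among the other effectors were those of HERC5, the ligase that attaches ISG15, and of IFITM1, which blocks viral entry. HERC5 went from 3234, 1836 and 1623 FPKM in the controls to 41200, 46692 and 38332 at 5 µM and 11633, 28871 and 12083 at 10 µM. Its log2 difference at 5 µM was 4.30 ± 0.30 (limma adjusted p = 0.000298), larger than that of RSAD2, the highest of the 10. IFITM1 rose by 3.08 ± 0.35 (limma adjusted p = 0.00117).

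Most genes next to the effectors were not called. The nearest annotated protein-coding gene on either side of each locus gave 14 neighbours, of which 13 were found in the files (CCDC194 was not). At 5 µM 4 of 13 were called as higher and none as lower, against 14.1% and 2.17% of all symbols, with 7 higher and 1 lower at an unadjusted limma p under 0.05 (26.6% and 21.9% of all symbols). FGR, 30.9 kb from IFI6, and PTGFR, 79.2 kb from IFI44L, were at 0 in all controls and at 301 to 1473 and 493 to 907 FPKM at 5 µM, far under their neighbours. The calls of FGR and PTGFR therefore set values near the floor against 0, and fragments were not estimated for the neighbours. RNF144A, 19.2 kb from RSAD2, was also low and went from 129 to 552 FPKM in the controls to 1892 to 2841 at 5 µM (log2 difference 3.03, limma adjusted p = 0.0142). IFI27L1, an ISG12 relative 1.0 kb from IFI27, went from 45872 to 70189 FPKM to 154133 to 183905 (log2 difference 1.48, limma adjusted p = 0.00124).
TMPRSS2, a serine protease whose annotation overlaps that of MX1 by 5772 bases on the opposite strand, was lower in both treated groups than in the controls. It was at 169036, 163408 and 157084 FPKM in the controls, 109840, 121239 and 126058 at 5 µM, and 60968, 84523 and 72344 at 10 µM, and at 10 µM it was lower than vehicle by a log2 difference of -1.18 (limma adjusted p = 0.00681), the one call of a neighbour as lower, against 3.4% of all symbols. MVB12A (named FAM125A in the files), 0.1 kb from BST2, went from 188075 to 204119 FPKM in the controls to 218813 to 236977 at 5 µM, a log2 difference of 0.23. FAM76A differed by 0.18, DNAJC15 by 0.41 and IFI27L2 by 0.53 at 5 µM, none of them called. FAM3B, 4.3 kb from MX2, was at 0, 492 and 1391 FPKM in the controls and at 5144 to 6926 at 5 µM, without overlap. It was not called (log2 difference 6.1 ± 2.64, limma adjusted p = 0.116), with 1 control at 0 widening the error on the log2 scale. ADGRL4 (named ELTD1 in the files) was at 148 to 1572 FPKM in the controls and 651 to 1567 at 5 µM. FAM216B and SOX11 were above 0 in 1 library each.

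Finally, all 20215 other symbols were ranked by Pearson correlation with the mean standardised log2 profile of the 10 genes over the 9 samples, which form 3 dose groups, so the value is a description. The most alike were IFITM1 (r = 0.9934), NFKB2, a subunit of the NF-kB factors (0.9922), the ADP-ribosyltransferase PARP9 (0.9912), the lysosomal thiol reductase IFI30 (0.9911) and the apolipoprotein APOL1 (0.9909). The 10 genes themselves ranged from 0.9378 (CMPK2) to 0.9948 (MX1) with the profile to which they contribute. Of the 50 symbols most like the profile 12 were in the interferon lists other than the ligands. Those lists hold 9, 8 and 46 genes among the 20215 symbols ranked. NFKB2, for example, read 104130, 101734 and 84365 FPKM in the controls, 184163, 177220 and 171908 at 5 µM, and 121907, 159836 and 131865 at 10 µM, with the same replicate highest at 10 µM as in the effectors.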

How the data were processed

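RNA of 9 HT-29 cultures was analysed. Per the labels and the study's methods, the authors quality-filtered paired-end reads (FASTX-Toolkit), mapped them with TopHat on hg19, and let Cufflinks give each gene an FPKM value. The library term and annotation version are not given in the sources used here. The deposited FPKM files hold 24934 entries under 23284 symbols, and repeated symbols were summed. The 10 genes are on 1 entry each. The genes and lists were chosen with earlier results of these data known.

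Values were tested as log2(FPKM + 1), so differences are on that scale, with limma 3.58.1 (R 4.3.3; lmFit, eBayes with trend) on the 6 samples of a pair. Symbols whose largest value reached 10 in either group entered, with Benjamini-Hochberg adjustment over all of them. Fold values are ratios of group mean FPKM and log2 differences compare means of log2 values, so they need not match. In simulated data, 200 genes of a mean FPKM of at least 1000 were changed by a log2 difference of size 2. Both groups had the control spread. At 5 µM against vehicle 90.0% were recovered, with 5 false calls. Most effectors differed by less, so this share does not give the power for them. Single values and ratios had an exact permutation test. Named genes were the 10 effectors, every ligand above 0, STAT2, IRF9, IRF7, USP18, ISG15, the 2 largest rises and falls called per list at 5 µM, the nearest neighbours and the 5 most alike symbols. A gene that the rule also names is not reported here.

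Fragments were estimated from FPKM steps at 12 microRNA genes (46 values, 100% whole within 0.01) and annotated lengths, where 63.9% of 277 genes came within 15% of the relation. Gene positions are from the GRCh37 annotation (hg19). Tables used pandas 2.3.3, numpy 2.4.6 and scipy 1.17.1, and plots matplotlib 3.10.9. Alternatives were another pseudocount, filter, fold threshold, scaling, treatment of repeated symbols, all 9 samples in a single fit, the replicate number as a block, and each replicate left out. Counts of non-overlapping groups under other scalings were added after seeing the data.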

Additional observations from a re-analysis of the deposited data

How the results depend on the processing

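At 5 µM against vehicle, 10 of the 10 effectors were called in every alternative except the fits without 5 µM replicate 2 or 3, so that leaving out 1 replicate gave 9 to 10, and every effector kept its direction in all comparisons and settings. Over single effectors, 148 of 150 alternative values kept their call at 5 µM against vehicle, 138 of 150 at 10 against 5 µM and 122 of 150 at 10 µM against vehicle. The later comparisons depended on the setting. For 10 against 5 µM, 1 effector was called as lower, and this became 0 with the replicate block or median-of-ratios scaling and 0 to 4 without 1 replicate (4 without 10 µM replicate 2). For 10 µM against vehicle, 4 were called as higher, and this became 2 with no filter on low values, 7 with median-of-ratios scaling, 7 with total scaling and 0 to 3 without 1 replicate (0 without control replicate 2 or 3 or 10 µM replicate 1 or 3, 2 without control replicate 1, and 3 without 10 µM replicate 2). Groups stayed separate for 9 to 10 effectors at 10 against 5 µM and 8 to 10 at 10 µM against vehicle over the scalings.

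Of the pathway lists, the 36 rises at 5 µM became 27 to 41 without 1 replicate, and the falls went from 0 to 3 with no fold threshold. The 2 falls from 5 to 10 µM became 6 with a pseudocount of 1000, 5 with at least 10 in all 3 replicates of a group, 4 with no fold threshold, 4 with all 9 samples in a single fit, 1 with the replicate block, 7 with total scaling and 0 to 24 without 1 replicate (24 without 10 µM replicate 2). The 4 rises at 10 µM over vehicle became 10 with all 9 samples in a single fit, 13 with median-of-ratios scaling, 19 with total scaling and 2 to 5 without 1 replicate (2 without control replicate 2), and the falls went from 0 to 0 to 2 (1 without control replicate 1, 2 without 10 µM replicate 2). From 5 to 10 µM, 829 symbols in all were called as lower with median-of-ratios scaling and 947 with total scaling. For settings other than the scalings the share of all symbols called is not given. Those counts of list genes and of effectors therefore cannot be set against that share. The cause was not tested.

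Samples sharing a replicate number did not deviate together (r between -0.07 and 0.09 over 9 pairs, -0.16 and 0.1 over 18 pairs of unlike number), so the numbers do not pair the cultures, and the block left the effectors called at 10 at 5 µM and at 4 at 10 µM against vehicle. The effectors rest on 204 or more estimated fragments a library, while most ligands rest on fewer than 10, where counting error, which the test does not model, limits the values.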
